A study of Mus musculus with 15 samples.

Results

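The genes described here are 35 genes of cholesterol and fatty acid synthesis. They were chosen by name from knowledge of the pathway, with earlier results of these data known. Among them are enzymes that build sterols from acetyl-CoA and enzymes that build, lengthen and desaturate fatty acids. The SREBP regulators that control both, and a few close associates, are also included. Probes carrying 34 of the 35 gene names were on the array, 75 probes among 56605, and the whole array named 37008 genes. Acat2, which makes acetoacetyl-CoA in the cytosol, had no probe by that name among the probes used here. The brightest probe stood for each gene, and for all 34 genes it was well above background on all 15 arrays, so that all 34 were tested in every comparison.

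The samples were 15 one-colour mouse arrays in 5 groups of 3. Pancreatic stellate cells (PSC), the fibroblast-like cells that lay down matrix in the injured pancreas, were isolated from mice of either wild-type (PSC WT) or heterozygous (PSC HT) genotype and cultured for 2 weeks until activated. The labels used here do not say which locus was heterozygous. Pancreatic cancer cells, of a line that the labels used here do not name, were kept for 24 h in control medium, in medium conditioned by PSC WT or in medium conditioned by PSC HT. No gene deletion or drug was stated for the cancer cells. Nothing stated whether the 3 samples of a group came from separate animals or cultures, so the p-values reflect spread among the arrays of a group, part or all of which may be technical.

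Cholesterol is made from acetyl-CoA through mevalonate, isoprenoid diphosphates and squalene, and then through a series of sterol intermediates that starts with lanosterol. The SREBP transcription factors, encoded by Srebf1 and Srebf2, are held in the endoplasmic reticulum by SCAP and the INSIG proteins when sterols are plentiful, and are carried to the Golgi and cleaved when sterols are scarce. The freed fragment then raises transcription of sterol enzymes, of Insig1 and of many fatty acid enzymes, so that these genes often move together. Cells that divide fast need both products for new membrane, and tumour cells are known for high use of this pathway.

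Levels are given as scaled log2 signal, the log2 of a probe's processed brightness minus the 75th percentile of that array, so that 0 is the brightness of a probe at that percentile. A level belongs to its probe and is not compared between genes. Differences are on the same log2 scale, with the standard error (SE) from limma, and a gene was called where its adjusted p was below 0.05 after Benjamini-Hochberg adjustment over all genes tested. The 12 stellate cell or fibroblast markers summed to 852 to 1150 times the 75th-percentile brightness on the 6 PSC arrays and to 21.1 to 27.3 on the 9 cancer cell arrays, and the 12 epithelial markers summed to 641 to 769 in the cancer cells and to 6.43 to 23.5 in the PSC. The array PSC HT 3 stood apart: Cdh1, the epithelial cadherin, read -2.45 on that array, and between -8.22 and -7.61 on the 5 remaining PSC arrays. The PSC results below are also given without PSC HT 3.

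Cancer cells given medium conditioned by PSC WT had higher transcript levels of sterol synthesis genes than cells in control medium. Of the 34 genes, 13 were higher and 0 lower (limma, adjusted p below 0.05), while 2.8% of all 19687 genes tested were higher. At an unadjusted p below 0.05 limma had 1 of the 34 lower, against 9.4% of all genes. The median difference was 0.27 over the 34 genes, a 1.2-fold rise, and 0.03 over all genes tested, and 30 of the 34 differences were positive against 55.8% of all genes. The 3 arrays of one group all lay above the 3 of the other for 26 of the 34 genes, where 14% of all genes did so. Sterol enzymes held most of the calls: 9 of the 16 measured were higher, with a median difference of 0.33, against 2 of the 11 fatty acid enzymes, with a median of 0.15. These counts come from the fit without blocks. With the replicate number as a block over all 9 cancer cell arrays, 7 of the 34 were called, all higher, against 4.91% of all genes in either direction.

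**Figure D1:**
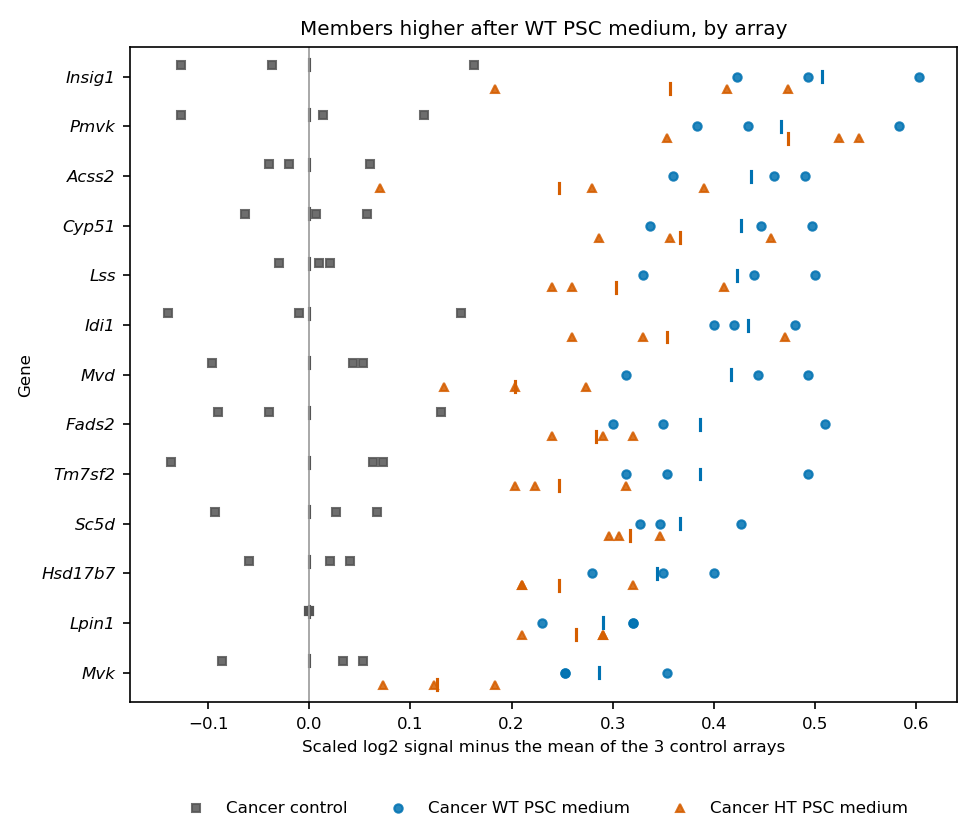
Scaled log2 signal of the 13 genes called higher after WT PSC medium, on each of the 9 cancer cell arrays, minus the mean of the 3 control arrays; ticks mark group means. For each gene drawn the 3 WT PSC medium arrays lie to the right of the 3 control arrays, and the HT PSC medium mean lies between the means of control and WT PSC medium except for Pmvk, where the media differ by 0.00.

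Among the enzymes that lead from acetyl-CoA to squalene, Mvk, Pmvk, Mvd and Idi1 were called higher. Pmvk, the kinase that adds the second phosphate to mevalonate, read 4.88, 5.12 and 5.02 in control medium and 5.44, 5.39 and 5.59 in WT PSC medium. All 3 treated arrays lay above all 3 controls, a difference of 0.47 ± 0.09 (SE, n = 3 per group; limma adjusted p = 0.0192), or 1.38-fold. Idi1, which interconverts the 2 five-carbon isoprenoid units, read 4.52, 4.81 and 4.65 in control medium and 5.08, 5.06 and 5.14 in WT PSC medium. The treated arrays were again the higher ones without overlap, by 0.43 ± 0.09 (SE; limma adjusted p = 0.0263). Mvd, the decarboxylase that makes the first of these units, read 2.89, 3.03 and 3.04 against 3.43, 3.30 and 3.48, a rise of 0.42 ± 0.08 (SE; limma adjusted p = 0.0161). Mvk, the mevalonate kinase, read 3.92, 4.04 and 4.06 against 4.26, 4.26 and 4.36, and its rise of 0.28 ± 0.07 (SE) was the smallest of the 13 and close to the threshold (limma adjusted p = 0.0446). The other measured enzymes of this stretch did not pass: Hmgcs1, the HMG-CoA synthase, differed by 0.21, Fdps, the farnesyl diphosphate synthase, by 0.27, and Fdft1, the squalene synthase, by 0.24, with limma adjusted p of 0.0786, 0.114 and 0.135.

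Between squalene and cholesterol, Lss, Cyp51, Tm7sf2, Hsd17b7 and Sc5d were called higher. Lss, which folds squalene epoxide into lanosterol, read 3.85, 3.90 and 3.89 in control medium and 4.32, 4.21 and 4.38 in WT PSC medium. Cyp51, the lanosterol demethylase, read 3.39, 3.44 and 3.32 against 3.83, 3.72 and 3.88. For both genes the lowest treated array was above the highest control, and both rose by 0.43 ± 0.07 (SE; limma adjusted p = 0.0111 for Lss and 0.0109 for Cyp51). Tm7sf2, a sterol C14 reductase, read 4.81, 4.82 and 4.61 against 5.06, 5.10 and 5.24, a rise of 0.38 ± 0.08 (SE; limma adjusted p = 0.0289). Sc5d, the desaturase near the end of the pathway, read 3.70, 3.54 and 3.66 against 3.96, 3.98 and 4.06, a rise of 0.36 ± 0.06 (SE; limma adjusted p = 0.0145). Hsd17b7, a ketoreductase acting on sterol intermediates, read 2.71, 2.69 and 2.61 against 3.02, 2.95 and 3.07, a rise of 0.34 ± 0.06 (SE; limma adjusted p = 0.0165). The groups did not overlap for any of these 3. Sqle, the squalene epoxidase, differed by 0.20 without passing (limma adjusted p = 0.0962), Nsdhl by 0.31 and Dhcr7, the last reductase, by 0.27, and Ebp, the sterol isomerase, by 0.09 with overlapping groups.

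Of the 6 genes for SREBP regulation and sterol transport, Insig1 alone was called. Insig1 encodes the sterol-sensitive anchor of the SREBP-SCAP complex and is itself an SREBP target. Its probe lies at chr5:28404246-28404305 (build mm9, per the files). Insig1 read 0.35, 0.55 and 0.26 in control medium and 0.81, 0.88 and 0.99 in WT PSC medium, a rise of 0.51 ± 0.11 (SE; limma adjusted p = 0.0271), or 1.42-fold. Its treated arrays all lay above the controls, and the difference was the largest among the 34 genes. The genes for the transcription factors and their escort did not pass. Srebf1 read 4.74, 4.60 and 4.40 against 4.47, 4.41 and 4.58, with overlap and a difference of -0.10 ± 0.09 (SE). Srebf2 read 2.50, 2.48 and 2.38 against 2.61, 2.64 and 2.54, a difference of 0.14 ± 0.06 (SE; limma adjusted p = 0.253) without overlap. Insig2 read 1.71, 1.63 and 1.80 against 1.65, 1.48 and 1.53 and Scap 3.60, 3.28 and 3.40 against 3.33, 3.26 and 3.31, so that both overlapped, with differences of -0.16 and -0.13. Stard4, a carrier of cholesterol between membranes, differed by 0.12 (limma adjusted p = 0.408).

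Among the fatty acid enzymes only Acss2 and Fads2 were called. Acss2, which activates acetate to acetyl-CoA, read 0.18, 0.26 and 0.16 in control medium and 0.69, 0.56 and 0.66 in WT PSC medium, a rise of 0.44 ± 0.09 (SE; limma adjusted p = 0.0244). Fads2, the delta-6 desaturase of polyunsaturated fatty acids, read 2.26, 2.04 and 2.09 against 2.48, 2.43 and 2.64, a rise of 0.39 ± 0.08 (SE; limma adjusted p = 0.029). Neither gene's groups overlapped. Both lost the threshold with the replicate block (limma adjusted p = 0.0532 for Acss2 and 0.0538 for Fads2) and with the mean of all probes of the gene, where the differences were 0.09 and 0.19 (limma adjusted p = 0.769 and 0.321). The core of the pathway did not pass: Acly, which releases acetyl-CoA from citrate, differed by 0.25 (limma adjusted p = 0.0677), Acaca, the acetyl-CoA carboxylase, by 0.15, Fasn, the fatty acid synthase, by 0.15, and Me1, a source of NADPH, by -0.03. Scd1 and Scd2, the stearoyl-CoA desaturases, differed by 0.31 and 0.06, and Elovl6 and Elovl5, elongases, by 0.27 and 0.14. Lpin1, the phosphatidate phosphatase that feeds glycerolipid synthesis, read -0.48 on each of the 3 control arrays and -0.16, -0.25 and -0.16 in WT PSC medium, a rise of 0.29 ± 0.06 (SE; limma adjusted p = 0.0195).

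These calls were near the threshold and depended on single arrays. With 1 array left out, 6, 8 or 7 genes were called without control 1, 2 or 3, and 3, 6 or 0 without WT PSC medium 1, 2 or 3. All of these were among the 13 except Scd1, which was called without control 1, so that 5 of the 13 were called there. Over these fits the median difference stayed between 0.23 and 0.30. Same-numbered control and WT PSC medium arrays deviated together, with correlations of 0.21, 0.25 and 0.22, where differently numbered arrays reached 0.22. With the replicate number as a block 7 genes were called, all among the 13: Cyp51, Hsd17b7, Idi1, Insig1, Lss, Mvd and Sc5d. Pmvk (limma adjusted p = 0.0502), Lpin1 (0.0538), Tm7sf2 (0.0692), Mvk (0.0886), Acss2 and Fads2 lost the threshold there. Unless stated, the adjusted p of single genes above come from the fit without this block. With no filter on dim probes 0 were called, and with the mean of all probes of a gene 7 were: Cyp51, Idi1, Insig1, Lss, Mvd, Pmvk and Tm7sf2. Within slide 1 and within slide 2 the median difference was 0.27 in each, and the 13 called genes kept their sign on both. The stellate marker sum was 21.1 to 22.4 in control medium and 24.1 to 27.3 in WT PSC medium, with 0 of the 3 markers tested called and at most 6 of 12 well above background. The macrophage and leukocyte markers summed to 17.4 to 19.5 in control medium and 17.8 to 20.2 in WT PSC medium, with 2 of the 7 tested higher. On each of these arrays 7 of the 13 were well above background. Bright markers weigh most in such sums. In control medium Acta2 read 3.96 to 4.15 and Cd14 3.44 to 3.51, while Col3a1 read -8.03 to -7.65 and Lyz2 -7.86 to -7.48. The part of these markers in the result was not tested.

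The promoters of the genes of this pathway, whether or not they passed a test, were read from the RefSeq promoter table (build GRCm38.p6), which gives 250 bases before and 50 after a gene's start and held 37 promoters of 28 of the 35 genes. The motif TCACNCCAC, a strict form of the sterol regulatory element that SREBP binds, was in 1 of the 28 genes (3.57%), Hmgcs1, and in 1.44% of the 27025 genes of the table. The motif CCAAT, the box bound by NF-Y, was in 22 of 28 (78.6%) against 41.1% of all genes of the table and 42.9% of the 11725 genes that were also tested in the cancer cells. All 13 sterol enzymes with a promoter in the table held CCAAT in at least 1 of their promoters, and 5 of the 8 fatty acid enzymes did. It was in 11 of the 13 genes called after WT PSC medium that had a promoter and in 11 of the 14 that did not pass, so that it did not set the called genes apart. GGGCGG, a GC box bound by Sp1, was in 22 of 28 against 63.1% of the genes tested in the cancer cells, and TCACGTGA, an E-box, was in 0 of 28 against 1.97%. Motifs were searched on both strands, and matches of different motifs were counted separately whether or not they overlapped.

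The 250 bases before the start are shown for Hmgcs1, the gene holding the strict sterol element, for Insig1, which had the largest difference, and for Idi1, Lss and Cyp51, the 3 sterol enzymes with the largest differences among those with 1 promoter in the table. They run 5′ to 3′ on the gene's strand at chr13:119690101-119690350, chr5:28071162-28071411, chr13:8885356-8885605 and chr10:76531355-76531604 on the plus strand and chr5:4104698-4104947 on the minus strand. Capitals mark CCAAT or its reverse complement ATTGG and, in Hmgcs1, TCACCCCAC.
Hmgcs1: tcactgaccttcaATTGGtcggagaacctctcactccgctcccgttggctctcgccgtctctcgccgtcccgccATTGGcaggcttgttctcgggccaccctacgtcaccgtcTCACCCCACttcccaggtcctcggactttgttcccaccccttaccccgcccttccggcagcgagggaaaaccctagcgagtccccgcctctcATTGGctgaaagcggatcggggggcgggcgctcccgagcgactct
Insig1: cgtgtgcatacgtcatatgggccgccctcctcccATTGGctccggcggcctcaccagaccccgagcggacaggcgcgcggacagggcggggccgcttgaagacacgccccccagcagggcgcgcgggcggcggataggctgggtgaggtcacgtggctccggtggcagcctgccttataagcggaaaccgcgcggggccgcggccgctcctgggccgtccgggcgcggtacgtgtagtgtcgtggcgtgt
Idi1: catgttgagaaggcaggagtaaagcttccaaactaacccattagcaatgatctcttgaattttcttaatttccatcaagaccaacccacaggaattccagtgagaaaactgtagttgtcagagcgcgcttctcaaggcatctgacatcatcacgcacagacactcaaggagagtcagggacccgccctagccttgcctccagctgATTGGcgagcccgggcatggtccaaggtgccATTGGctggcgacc
Lss: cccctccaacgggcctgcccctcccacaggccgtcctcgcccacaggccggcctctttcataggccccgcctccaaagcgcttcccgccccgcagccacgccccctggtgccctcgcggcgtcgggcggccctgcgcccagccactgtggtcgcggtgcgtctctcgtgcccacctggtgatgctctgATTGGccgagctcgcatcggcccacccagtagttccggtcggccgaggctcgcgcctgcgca
Cyp51: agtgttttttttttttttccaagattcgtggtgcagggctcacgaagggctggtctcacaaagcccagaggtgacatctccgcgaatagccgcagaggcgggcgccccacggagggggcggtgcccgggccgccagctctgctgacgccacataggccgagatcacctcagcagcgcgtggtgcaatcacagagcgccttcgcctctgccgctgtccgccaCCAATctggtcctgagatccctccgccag
Hmgcs1 held 3 CCAAT boxes in these bases, Idi1 held 2, and Insig1, Lss and Cyp51 held 1 each. Between the start and the nearest box lay 40 bases in Hmgcs1, 9 in Idi1, 57 in Lss, 24 in Cyp51 and 211 in Insig1. A match describes the letters only and is not evidence of binding.

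Medium conditioned by PSC HT gave fewer calls against the same control arrays. Of the 34 genes, 5 were higher and 0 lower, while 2.97% of all genes tested were higher and 2.5% lower. At an unadjusted p below 0.05 limma had 0 of the 34 lower, against 8.46% of all genes. The median difference was 0.17, against 0.01 over all genes, 28 of the 34 differences were positive against 52.6% of all genes, and 21 genes had non-overlapping groups with the treated arrays above, as did 14.2% of all genes. The 5 were Pmvk, Lss, Cyp51, Sc5d and Lpin1. Because both media were compared with the same 3 control arrays, each comparison's own values are given side by side and their likeness is not used as evidence.

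**Figure D2:**
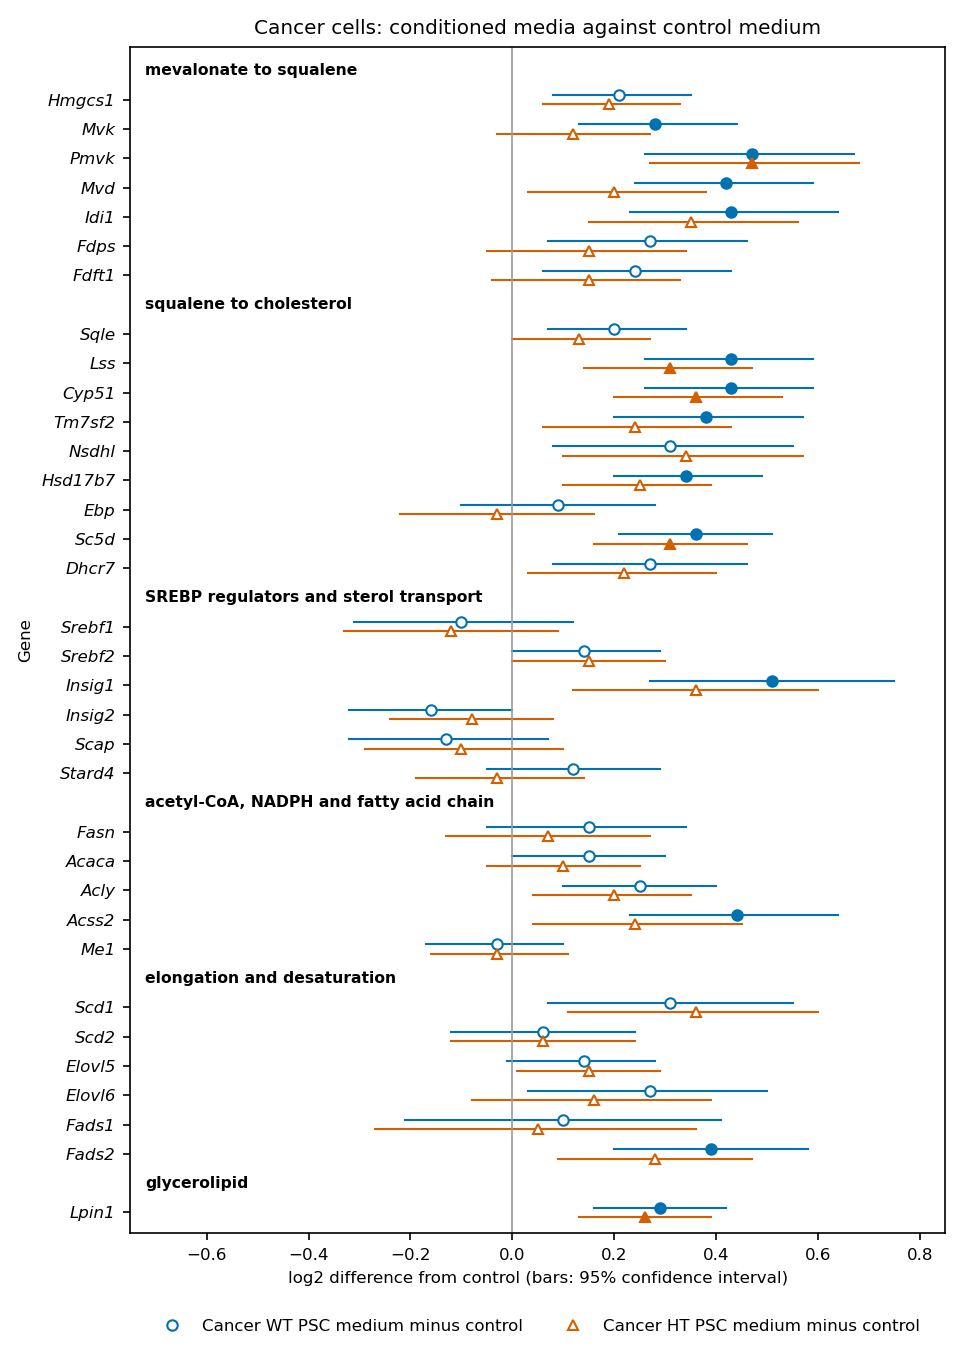
Differences of the 34 genes from control medium in the cancer cells after WT PSC medium (circles) and HT PSC medium (triangles), by role in the pathway, with 95% confidence intervals; filled symbols passed the test. Most sterol enzymes lie above 0 in both media, and Srebf1, Insig2 and Scap lie below 0 in both, with open symbols.

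Pmvk read 5.55, 5.53 and 5.36 in HT PSC medium, above all 3 controls, a rise of 0.47 ± 0.09 (SE; limma adjusted p = 0.0214), where WT PSC medium gave 0.47. Cyp51 read 3.84, 3.74 and 3.67, a rise of 0.36 ± 0.07 (SE; limma adjusted p = 0.0237) beside 0.43 in WT PSC medium. Sc5d read 3.93, 3.98 and 3.94 and rose by 0.31 ± 0.06 (SE; limma adjusted p = 0.03). All 3 genes were above the controls on each treated array. Lss read 4.12, 4.29 and 4.14 and rose by 0.31 ± 0.07 (SE; limma adjusted p = 0.047), and Lpin1 read -0.19, -0.19 and -0.27 and rose by 0.26 ± 0.06 (SE; limma adjusted p = 0.0324). These also cleared the control arrays.

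The other 8 genes that rose after WT PSC medium did not pass here. Insig1 read 0.80, 0.86 and 0.57, a difference of 0.36 ± 0.11 (SE; limma adjusted p = 0.0981), its lowest array just above the highest control. Idi1 read 4.99, 5.13 and 4.92, a difference of 0.35 (limma adjusted p = 0.0596), and Hsd17b7 read 2.88, 2.99 and 2.88, a difference of 0.25 (limma adjusted p = 0.063). Both lay above all controls, so that they missed the threshold narrowly. Mvd read 3.26, 3.19 and 3.12, Mvk 4.19, 4.13 and 4.08, and Tm7sf2 5.06, 4.95 and 4.97, with differences of 0.20, 0.12 and 0.24. Acss2 read 0.27, 0.59 and 0.48 and Fads2 2.45, 2.42 and 2.37, with differences of 0.24 and 0.28. Among the regulators, Srebf1 read 4.44, 4.44 and 4.50, Srebf2 2.61, 2.66 and 2.54, Insig2 1.64, 1.60 and 1.68, and Scap 3.33, 3.29 and 3.37. Their differences of -0.12, 0.15, -0.08 and -0.10 did not pass. Fatty acid enzymes gave 0 calls of 11 by limma, with 5 of the 11 higher at an unadjusted p below 0.05, where 11.3% of all genes were.

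With 1 array left out, 1 gene was called without control 1 (Scd1, not among the 5), 2 without control 2 (Pmvk, and Idi1, not among the 5) and 1 without control 3 (Pmvk). Without HT PSC medium 1, 2 or 3 the calls were 0, 0 and 2 (Cyp51 and Pmvk). None of the 34 was called with no filter on dim probes. With the replicate block 0 were called too, against 4.04% of all genes in either direction. With the mean of all probes 2 were called (Lss and Pmvk), where Lpin1 differed by 0.17. A variance trend with robust moderation called 11. Within slide 1 the median difference was 0.18 and within slide 2 it was 0.20.

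The direct comparison of the media left no gene past the threshold. By limma 0 of the 34 genes and 0 of all 19687 genes passed, so that 0% were called. At an unadjusted p below 0.05, 2 of the 34 genes were lower in HT PSC medium and 0 higher, while 585 of all genes were higher (2.97%) and 375 lower (1.9%). The 2 genes were Mvd, at -0.22 ± 0.08 (SE; 95% confidence interval -0.39 to -0.04), and Mvk, at -0.16 ± 0.07 (SE; -0.32 to -0.01), and each had a limma adjusted p of 0.984. The difference was positive for 8 of the 34 genes and negative for 26, with a median of -0.06, while 48.1% of all genes were positive. The HT arrays all lay below the WT arrays for 4 of the 34 (Mvk, Mvd, Tm7sf2 and Stard4), where 4.83% of all genes did so. Over the 34 genes the 95% confidence intervals ran from -0.40 to 0.29, so that for single genes the data leave room for differences inside that range. For Insig1 the difference was -0.15 (-0.39 to 0.09) and for Pmvk 0.00 (-0.20 to 0.21). The larger number of calls in WT PSC medium is thus not a shown difference between the media.

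Genes of neighbouring pathways in the cancer cells were read from lists chosen by knowledge of the pathway, with earlier results of these data known. Of 7 other sterol synthesis genes, 1 was higher after WT PSC medium: Msmo1, the sterol C4 methyl oxidase, read 5.76, 5.72 and 5.77 in control medium and 6.08, 6.03 and 6.21 in WT PSC medium, a rise of 0.35 ± 0.07 (SE; limma adjusted p = 0.0213). With the replicate block its adjusted p was 0.0568. After HT PSC medium 0 of the 7 passed by limma, with 3 higher at an unadjusted p below 0.05. Of 7 genes for SREBP processing and sterol sensing and 10 of 12 other fatty acid synthesis genes that were tested, 0 were called in either medium by limma. At an unadjusted p below 0.05, 0 SREBP processing genes were higher and 1 lower after WT PSC medium and 2 higher and 0 lower after HT PSC medium, and of the fatty acid synthesis genes 2 were higher and 1 lower, and 1 higher and 1 lower. Over all genes tested, 10.8% were higher and 9.4% lower at that level after WT PSC medium, and 11.3% and 8.46% after HT PSC medium.

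LXR is the nuclear receptor that senses excess sterol and raises export genes. Of the 6 tested genes of LXR signalling and sterol storage or efflux, 2 were lower and 0 higher in each medium. Mylip, an LXR target whose product marks lipoprotein receptors for degradation, read -3.98 on each of the 3 control arrays, -4.90, -4.79 and -4.91 in WT PSC medium and -4.37, -4.95 and -4.48 in HT PSC medium. It fell in both without overlap, by 0.89 ± 0.14 (SE; limma adjusted p = 0.00737) and by 0.62 ± 0.14 (SE; limma adjusted p = 0.0365). Nr1h3, which encodes LXR-alpha, read -0.56, -0.35 and -0.42 in control medium, -0.95, -1.14 and -0.91 in WT PSC medium and -0.90, -1.02 and -0.95 in HT PSC medium. It fell by 0.55 ± 0.09 (SE; limma adjusted p = 0.00787) and by 0.51 ± 0.09 (SE; limma adjusted p = 0.0135). The size for Mylip, a dim probe, depended on the background correction: with normexp the differences were -0.43 and -0.33, and in the series matrix -0.41 and -0.29. After WT PSC medium both genes passed the threshold under each alternative run, while after HT PSC medium Mylip lost it without any 1 control array, without HT PSC medium 3, with no filter on dim probes, with the replicate block, with a variance trend, under quantile normalization and in the series matrix. Nr1h3 lost it there with no filter and in a fit over all 15 arrays. Of 10 fatty acid oxidation genes, 2 were lower and 0 higher after WT PSC medium, and 1 lower and 0 higher after HT PSC medium, by limma. At an unadjusted p below 0.05, 6 of the 10 were lower and 0 higher in each medium. Over all genes tested, 9.4% and 8.46% were lower at that level. Among these genes Acadm, the medium-chain dehydrogenase, fell by 0.35 after WT PSC medium (limma adjusted p = 0.04, and 0.0545 with the replicate block). Of all genes tested, 3.15% were lower after WT PSC medium and 2.5% after HT PSC medium. Between the media 0 genes of these 5 lists passed by limma, and at an unadjusted p below 0.05 the SREBP processing, LXR and other fatty acid synthesis lists had 1 higher gene each.

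In the stellate cells, 1 of the 34 genes was higher and 1 lower in PSC HT than in PSC WT, while 2.95% of all 20886 genes tested were higher and 4.78% lower, so that the calls were near the background. The differences were positive for 33 of the 34 genes against 49.4% of all genes, with a median of 0.17 against 0.00 over all genes tested. The 3 HT arrays lay above the 3 WT arrays for 15 genes and below for 1, where 14.1% of all genes lay above and 15% below. In bulk RNA, more cells of a type and more RNA per cell cannot be told apart.

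**Figure D3:**
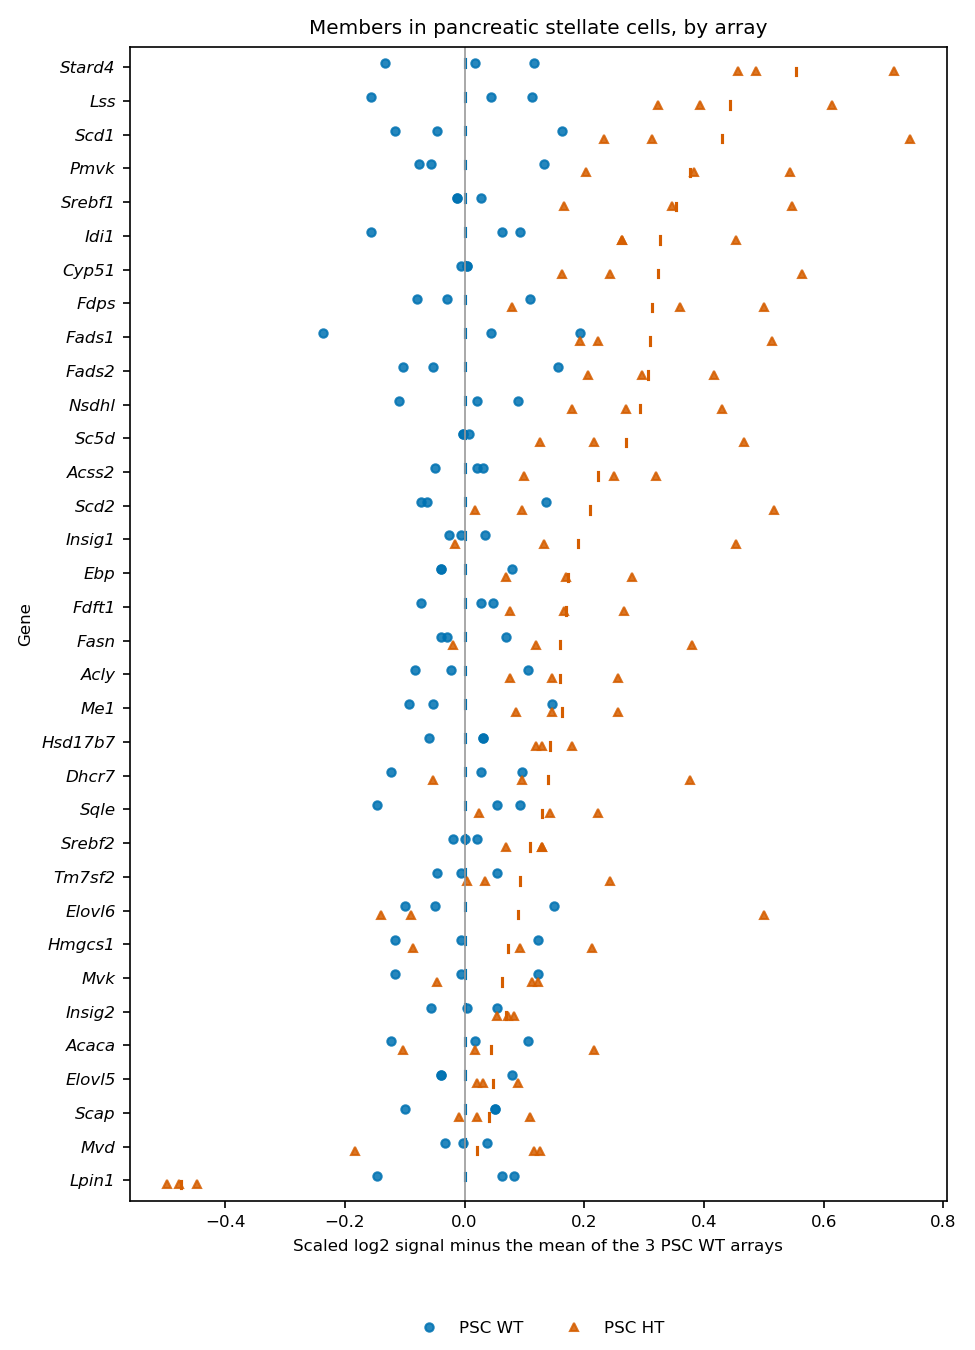
Scaled log2 signal of the 34 genes on each of the 6 PSC arrays minus the mean of the 3 PSC WT arrays, ordered by the difference between the groups; ticks mark group means. PSC HT 1 is the highest of the 6 arrays for 27 of the 34 genes, and Lpin1 alone lies lower in PSC HT.

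Stard4, the sterol carrier, read 0.90, 0.75 and 1.00 in PSC WT and 1.60, 1.34 and 1.37 in PSC HT. The HT arrays were all higher, by 0.55 ± 0.11 (SE, n = 3 per group; limma adjusted p = 0.0309), or 1.46-fold. Lpin1 read -1.75, -1.52 and -1.54 in PSC WT and -2.08, -2.10 and -2.05 in PSC HT. It was lower on every HT array, a difference of -0.48 ± 0.09 (SE; limma adjusted p = 0.0244), or 1.39-fold lower. Sterol enzymes gave 0 calls of 16 by limma (7 of 16 were higher at an unadjusted p below 0.05, against 10.1% of all genes) and fatty acid enzymes 0 of 11 (3 of 11 at that level). Lss came closest: it read 1.61, 1.81 and 1.88 against 2.38, 2.09 and 2.16, a difference of 0.44 ± 0.11 (SE; limma adjusted p = 0.0718). Scd1 differed by 0.43, Pmvk by 0.38 and Idi1 by 0.33, with limma adjusted p of 0.168, 0.111 and 0.119.

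The regulators did not pass in the stellate cells. Srebf1 read 3.58, 3.54 and 3.54 in PSC WT and 4.10, 3.72 and 3.90 in PSC HT, a difference of 0.35 ± 0.11 (SE; limma adjusted p = 0.117) without overlap. Srebf2 read 1.91, 1.89 and 1.93 against 2.04, 2.04 and 1.98, a difference of 0.11, also without overlap. Insig1 read -1.07, -1.09 and -1.03 against -0.61, -1.08 and -0.93, so that its groups overlapped with PSC HT 1 the highest, and the difference was 0.19. Insig2 and Scap differed by 0.07 and 0.04, with readings of 1.63, 1.69 and 1.74 against 1.74, 1.77 and 1.76 for Insig2 and of 2.94, 2.94 and 2.79 against 2.91, 2.88 and 3.00 for Scap. The genes that rose in the cancer cells did not all follow: Mvd, called there, read 0.42, 0.35 and 0.38 in PSC WT and 0.51, 0.20 and 0.50 in PSC HT, with overlap and a difference of 0.02.

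One array carried much of the shift. The median difference from the PSC WT mean was 0.35 on PSC HT 1, 0.08 on PSC HT 2 and 0.16 on PSC HT 3. Without PSC HT 1 the median difference was 0.12 and 30 of 34 were positive, and without PSC HT 3 it was 0.17 with 32 positive. Stard4 and Lpin1 both failed the threshold without PSC HT 1, without PSC HT 2, without PSC HT 3, without PSC WT 2 and without PSC WT 3, and Stard4 failed it without PSC WT 1 and with slide as a block. Within slide 1 the median difference was 0.24 with 32 of 34 positive, and within slide 2 it was 0.09 with 25 positive. A fit over all 15 arrays called 9 genes and one with a variance trend and robust moderation 6.

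Markers of other cell types differed between the same groups. The 13 macrophage and leukocyte markers summed to 19.5 to 32 in PSC WT and 73.3 to 179 in PSC HT, with 11 of 13 higher, and the highest sum was on PSC HT 1. Of 6 mesothelial markers 5 were lower in PSC HT (sums of 10.5 to 17.1 against 38.8 to 48), and of the 5 endothelial markers tested 4 were lower. The stellate markers summed to 852 to 1150 in PSC WT and 1010 to 1100 in PSC HT, with 2 of 12 higher, 1 of the 3 tested adipocyte markers was higher, and 0 of 6 epithelial and 0 of 3 acinar markers tested were called by limma (0 and 1 at an unadjusted p below 0.05). The part of these cells in the result was not tested.

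Among neighbouring pathways in the stellate cells, 1 of 7 genes of LXR signalling and sterol storage or efflux was higher in PSC HT. Abcg1, a sterol exporter that macrophages express strongly, read -2.80, -3.10 and -3.02 in PSC WT and -1.06, -1.80 and -1.90 in PSC HT, a rise of 1.39 ± 0.23 (SE; limma adjusted p = 0.0189). Of 10 fatty acid oxidation genes 1 was higher: Ppara, the nuclear receptor that drives oxidation genes, read -3.88, -3.87 and -3.68 against -3.28, -3.15 and -3.20, a rise of 0.60 ± 0.09 (SE; limma adjusted p = 0.012). Both genes were higher on every HT array and passed without PSC HT 3, but Abcg1 lost the threshold without PSC WT 2 or PSC WT 3 and Ppara without PSC WT 2. Both also lost it with no filter on dim probes (limma adjusted p = 0.0913 and 0.0819), and Ppara with the mean of its probes, at 0.47 (limma adjusted p = 0.325). In the series matrix Ppara differed by 0.39 and still passed. The 7 other sterol synthesis genes, the 7 of SREBP processing and the 9 tested other fatty acid synthesis genes gave 0 calls by limma. At an unadjusted p below 0.05 by limma, 0, 1 and 2 genes were higher, against 10.1% of all genes. At that level 0 genes of each list were lower, against 2514 of all 20886 genes.

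The levels also differed between the cell types. The PSC were isolated from mice and cultured for 2 weeks, and the cancer cells were a line kept 24 h in control medium. Cell type and culture therefore cannot be told apart in this comparison. PSC WT had lower levels than cancer cells in control medium for 29 of the 34 genes and higher for 1, while 35.2% of all 21928 genes tested were lower and 36.1% higher. The median difference was -1.11, or 2.15-fold lower in PSC WT, against 0.04 over all genes, and 4 of 34 differences were positive where 51.5% of all genes were. Under quantile normalization the median of all genes was -0.07 and that of the 34 genes -1.09. Sterol enzymes were lower for 14 of 16, with a median of -1.56, and fatty acid enzymes for 9 of 11, with a median of -0.87. Leaving out any 1 array left 29 or 30 of the 34 called, and the median was -1.19 within slide 1 and -1.10 within slide 2.

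**Figure D4:**
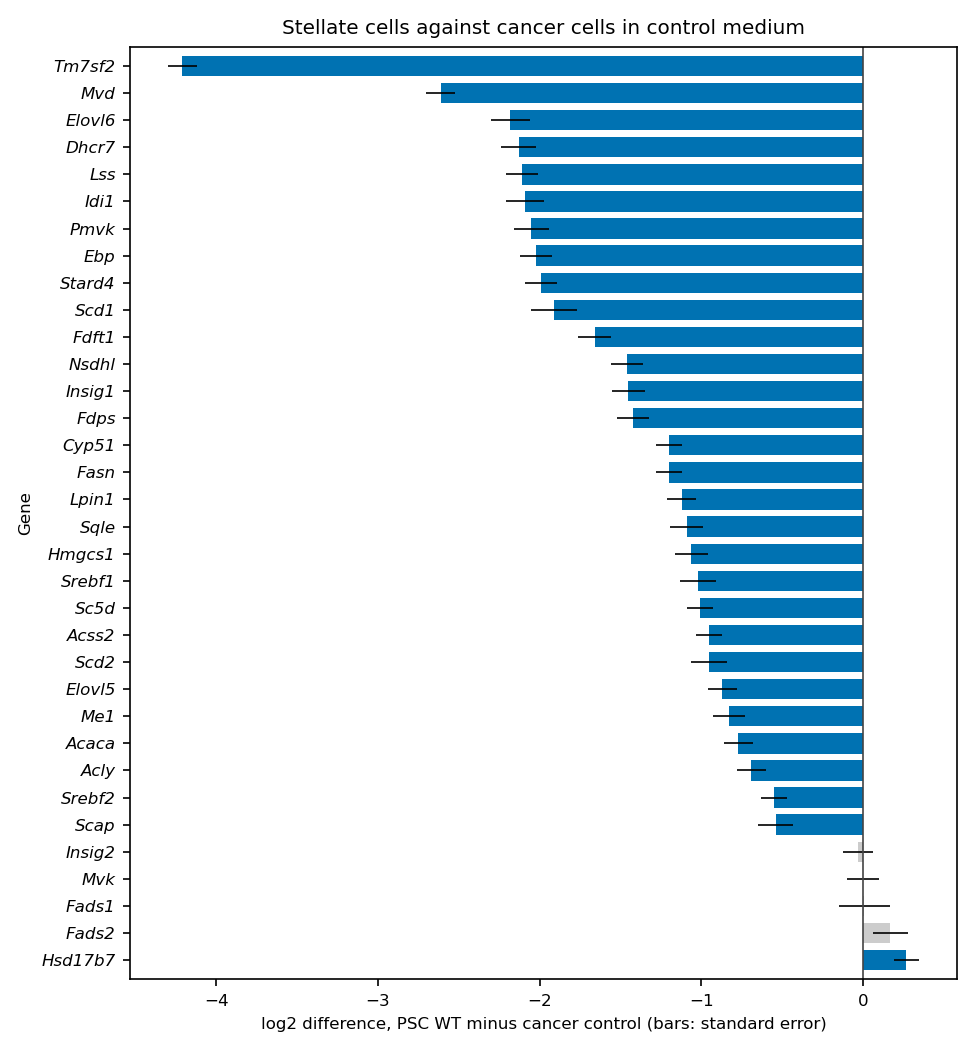
Difference of each of the 34 genes between PSC WT and cancer cells in control medium (3 arrays each), with standard errors; grey bars did not pass the test. Tm7sf2 lies at -4.21 and Hsd17b7, the only gene called higher in PSC WT, at 0.27.

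Tm7sf2 read 0.59, 0.49 and 0.53 in PSC WT and 4.81, 4.82 and 4.61 in the cancer cells. The groups lay far apart, by -4.21 ± 0.09 (SE; limma adjusted p = 9.04e-08), or 18.5-fold. Mvd read 0.42, 0.35 and 0.38 against 2.89, 3.03 and 3.04, a difference of -2.61 ± 0.09 (SE), or 6.09-fold. Elovl6, which elongates palmitate, read 1.02, 0.82 and 0.77 against 3.23, 3.06 and 2.87, a difference of -2.18 ± 0.12 (SE), or 4.55-fold. Both separated the cell types completely. Dhcr7 read -1.19, -1.04 and -0.97 against 1.19, 1.04 and 0.96, Lss 1.61, 1.81 and 1.88 against 3.85, 3.90 and 3.89, and Idi1 2.41, 2.66 and 2.63 against 4.52, 4.81 and 4.65. These were 4.38-fold, 4.31-fold and 4.26-fold lower in PSC WT.

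Among the regulators, Insig1 was lower in PSC WT, with a difference of -1.45 ± 0.10 (SE), as were Srebf1 at -1.02 ± 0.11, Srebf2 at -0.55 ± 0.08 and Scap at -0.54 ± 0.11. Insig2 differed by -0.03 (limma adjusted p = 0.78), and its sign turned under quantile normalization. Stard4 stood at -1.99, or 3.97-fold lower. Fasn stood at -1.20, Acly at -0.69, Acaca at -0.77 and Scd1 at -1.91, all called lower. By their brightest probes, some enzymes did not pass: Mvk differed by 0.00 (95% confidence interval -0.23 to 0.24), Fads1, the delta-5 desaturase, by 0.01 (-0.38 to 0.41) and Fads2 by 0.17 (-0.09 to 0.43). Hsd17b7 read 2.88, 2.97 and 2.97 against 2.71, 2.69 and 2.61, higher in PSC WT by 0.27 ± 0.08 (SE; limma adjusted p = 0.0219), but its other probes gave -0.06 and -0.50 and the mean of its probes gave -0.10. Its direction therefore rests on the probe. So do the size and sign for Fads2, whose other probes gave -0.60, -0.44, -0.01 and 0.44. The result for Mvk does too, since its other probe gave -0.75 and it was called lower with the mean of its probes. With that mean, Srebf2 stood at -1.23, Acss2 at -0.53 rather than -0.95, and Lpin1 at -0.72 rather than -1.12, all still called lower.

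The neighbouring pathways were not uniformly lower in PSC WT. Over all genes tested, 35.2% were lower in PSC WT and 36.1% higher. Other sterol synthesis genes were lower in PSC WT for 4 of 7 and higher for 3, among them Lbr, a sterol C14 reductase of the nuclear envelope, at -1.67 and Ggps1, a geranylgeranyl diphosphate synthase, at 0.66. Other fatty acid synthesis genes were lower for 7 of 10 tested and higher for 2, and fatty acid oxidation genes lower for 6 of 10 and higher for 4. SREBP processing genes were lower for 3 of 7 (42.9%) and higher for 2 (28.6%), near the shares over all genes. Genes of LXR signalling and sterol storage or efflux were higher in PSC WT for 5 of 7 and lower for 1. Mylip read -1.79, -1.66 and -1.76 in PSC WT, higher by 2.24 ± 0.08 (SE). Nr1h3 was lower, with a difference of -1.68 ± 0.15 (SE).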

How the data were processed

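RNA from 15 samples was hybridised to one-colour Agilent arrays, labelled with Cy3 through double-stranded cDNA, per the labels' protocols, so that probes may not tell strands apart. Per the file headers, the deposited intensities came from Feature Extraction 10.7.3.1, with probe positions on build mm9 and a processed signal that was already background subtracted. The log2 values of the deposited series matrix, whose preparation is not given in the sources used here, correlated with log2 mean signal at 0.9949 to 0.9989 and were used as an alternative for comparisons inside one cell type.

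Values are log2 processed signal minus the 75th percentile of the array (913.4 to 1449 signal units), without outlier spots, and with replicate spots averaged. The share of spots flagged as well above background ran from 54.3% to 63.8% per array. The small number of arrays limits how precise a difference can be. The probe with the highest mean over 15 arrays stood for a gene. Genes well above background on all arrays of a group were tested with limma 3.58.1 (R 4.3.3) in 3 fits: 6 PSC arrays, 9 cancer cell arrays, and PSC WT with cancer control. The fit was tested on simulated data. RefSeq accessions named 32994 probes, symbols 10224 and synonyms 520; 12867 kept the file's name.

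The genes and lists were chosen with earlier results of these data known. Values on every array are given for the genes called within a cell type, for the 6 largest differences and the gene called higher between cell types, and for Srebf1, Srebf2, Insig1, Insig2 and Scap; from other lists up to 4 called genes per comparison are named. Some genes of these lists are not reported here. The arrays lay on 2 slides. The labels number the replicates without saying what a number marks. Deviations of same-numbered control and WT PSC medium arrays correlated at 0.21, 0.25 and 0.22, each above 0.1, and were taken as paired. Differently numbered arrays of these groups correlated at -0.46 to 0.22, so that the basis for this pairing is weak. Every other comparison had a same-numbered pair at 0.1 or below, although control and HT PSC medium arrays numbered 2 correlated at 0.38. Alternatives changed the background correction, scaling, filter, probe choice, blocks, variance model, arrays in the fit and source table, and left out each array in turn.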

Additional observations from a re-analysis of the deposited data

How the results depend on the processing

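Counts of called genes among the 34 changed with the following choices; the causes were not tested, except that more genes were tested with no filter (37008). With no filter on dim probes 0 genes were called in PSC HT against PSC WT, 0 after WT PSC medium and 0 after HT PSC medium. With the mean of all probes of a gene 1, 7 and 2 were called. With the replicate block 0, 7 and 0 were called. The numbers are taken as pairs only for control and WT PSC medium, but the block was fitted over all 9 cancer cell arrays. HT PSC medium arrays were thus in the same numbered blocks. The block changed no call between the media and gave 29 between cell types. Slide as a block gave 1 call in the PSC. A variance trend with robust moderation gave 6 calls in the PSC and 11 after HT PSC medium, and 1 fit over all 15 arrays gave 9 in the PSC. Leaving out 1 array gave 0 to 1 calls in the PSC (median difference 0.12 to 0.23), 0 to 8 after WT PSC medium (0.23 to 0.30), 0 to 2 after HT PSC medium (0.16 to 0.21), 0 between the media and 29 to 30 between cell types. The other 48 recomputed counts stayed within 1.5 times. Between the media, normexp, the variance trend, the fit over 15 arrays and the series matrix each called 1 gene of all tested, none of them among the 34.

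Some single differences changed sign. Hsd17b7, called higher in PSC WT at 0.27, was -0.10 with the mean of its probes; the others had not passed the test. Insig2 between cell types was 0.01 under quantile normalization, 0.06 with the mean of its probes, 0.01 without control replicate 3 and 0.00 without PSC WT replicate 1, and after HT PSC medium it was 0.04 with the mean of its probes. Leaving out 1 array gave -0.07 to 0.01 for this Insig2 difference between cell types. Scap was -0.01 to 0.07 in the PSC with 1 array left out (-0.01 without PSC WT replicate 3) and -0.01 between the media with slide as a block. Between the media, Srebf1 was -0.06 to 0.02 with 1 array left out (0.02 without WT PSC medium replicate 3), and Srebf2 was 0.00 with normexp, -0.02 to 0.04 with 1 array left out (-0.02 without WT PSC medium replicate 3 and without HT PSC medium replicate 2). Within slide 2, Insig1 was -0.02 in the PSC, Scap 0.01 after either medium and Insig2 0.08 between cell types, and within slide 1 Srebf2 was -0.04 between the media.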

Other observations

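Different probes of a gene did not always move together in the cancer cells. These probes were singled out after their values were seen. Among probes of the 34 genes that were well above background on at least 12 arrays, 48 of 55 built on curated RefSeq mRNA accessions had a positive difference after WT PSC medium, with a median of 0.27. Of 13 built on other accessions (cDNA clones, Ensembl transcripts or predicted RefSeq transcripts) 7 did, with a median of 0.12. The probes on predicted RefSeq transcripts, of Elovl5 and Sc5d, were among the positive ones, at 0.31 and 0.12 after WT PSC medium and 0.14 and 0.22 after HT PSC medium. After HT PSC medium the counts were 45 of 55 and 7 of 13. These 13 probes come from 10 genes and are mostly dimmer than the brightest probe of their gene.

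The second probe of Hmgcs1, on a cDNA clone, gave -0.25 after WT PSC medium and -0.28 after HT PSC medium, where the brightest gave 0.21 and 0.19. For Nsdhl, which removes the C4 methyl groups of sterols, a cDNA clone probe gave -0.22 and -0.31 against 0.31 and 0.34. For Fads2, a probe on a cDNA clone gave -0.33 and -0.32, while its other 4 probes gave 0.18 to 0.51 after WT PSC medium. An Ensembl transcript probe of Acaca gave -0.58 and -0.37 against 0.15 and 0.10 for the brightest. Between cell types, the brightest Srebf2 probe gave -0.55 and the other -1.91.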
